A study of Mus musculus with 6 samples.

Results

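The genes described here are 40 skeletal muscle contractile and myogenic genes, chosen by symbol from the 24972 genes of 2 tables of normalized counts. All 40 were found in both tables. They encode myosins, actin and troponins, Z disc and calcium-handling proteins, muscle metabolic enzymes, acetylcholine receptor subunits and the myogenic transcription factors. RNA came from upper first molars that were taken at postnatal day 1 from mice with 0, 1 or 2 mutant Ascl5 alleles. Each genotype (Ascl5WT/WT, Ascl5Mut/WT, Ascl5Mut/Mut) has 2 libraries. The Ascl5 protein is a transcription factor of the basic helix-loop-helix class. The labels give no strain, sex, treatment or nature of the mutant allele, and no number of animals or teeth per library. The library names number all mutant libraries before both wild-type ones. An effect of handling that followed these numbers could not be told apart from genotype. No muscle was named as a sampled tissue, so these genes are described library by library, with the fibre types and the developmental stage that they mark.

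Skeletal muscle fibres contract when calcium released from the sarcoplasmic reticulum binds troponin on the thin filament and lets myosin heads of the thick filament pull on actin. Most parts of this machinery come in fast and slow versions, which mark fibre types, and the myosin heavy chain also marks age. Embryonic myosin (Myh3) and neonatal myosin (Myh8) come before the adult fast 2A, 2X and 2B chains (Myh2, Myh1, Myh4), which take over after birth. Myh7 encodes the slow chain, which marks fibre type and is not taken here as a sign of age. Pax7 marks muscle stem cells, while Myod1, Myf6 and Myog encode transcription factors of the myogenic programme.

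Promoter sequences are shown first for 4 members, as examples of the genes taken below as markers of stage (Myh8, Myh3), fast fibres (Mylpf) and slow fibres (Mybpc1). They are the 250 bases before and the 50 after a transcription start, from RefSeq on GRCm38.p6. Of the 40 members, 32 matched an entry, with 37 promoters in all. Both strands were searched for 4 motifs: the E-box CAGCTG read by myogenic helix-loop-helix factors, the MEF2 site, the CArG box and the TATA box TATAAA. The Myh8 window (chr11:67276874-67277173, plus strand) holds a MEF2 site whose first base lies at -99 from the start, in capitals, and a TATAAA on the other strand at -96 overlaps it. The Myh3 window (chr11:67078050-67078349, plus strand) holds TATAAA at -29, in capitals. The Mylpf window (chr7:127211358-127211657, plus strand) and the Mybpc1 window (chr10:88605103-88605402, minus strand) hold CAGCTG at -51 and -87, in capitals.
Myh8: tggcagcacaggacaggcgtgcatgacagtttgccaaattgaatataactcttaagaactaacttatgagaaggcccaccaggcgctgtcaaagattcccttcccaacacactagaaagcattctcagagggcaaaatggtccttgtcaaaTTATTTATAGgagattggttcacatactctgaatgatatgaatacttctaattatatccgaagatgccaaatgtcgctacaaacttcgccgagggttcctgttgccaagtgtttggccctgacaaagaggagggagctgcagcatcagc
Myh3: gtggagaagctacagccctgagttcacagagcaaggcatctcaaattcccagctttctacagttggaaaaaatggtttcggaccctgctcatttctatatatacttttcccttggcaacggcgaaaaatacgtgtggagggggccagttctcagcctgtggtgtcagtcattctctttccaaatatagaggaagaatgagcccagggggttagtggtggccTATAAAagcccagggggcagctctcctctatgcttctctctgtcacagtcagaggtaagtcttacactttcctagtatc
Mylpf: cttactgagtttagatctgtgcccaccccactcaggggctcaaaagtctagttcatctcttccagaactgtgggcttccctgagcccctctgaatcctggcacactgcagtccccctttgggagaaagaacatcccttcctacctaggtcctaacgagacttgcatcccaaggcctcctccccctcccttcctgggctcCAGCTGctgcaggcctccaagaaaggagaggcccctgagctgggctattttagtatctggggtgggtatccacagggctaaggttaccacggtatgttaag
Mybpc1: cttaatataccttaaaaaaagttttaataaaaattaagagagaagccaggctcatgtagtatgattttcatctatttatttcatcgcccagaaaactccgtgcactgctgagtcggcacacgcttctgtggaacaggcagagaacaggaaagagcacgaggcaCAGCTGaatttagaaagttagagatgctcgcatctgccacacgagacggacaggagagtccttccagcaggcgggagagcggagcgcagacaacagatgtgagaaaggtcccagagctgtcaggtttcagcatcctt
CAGCTG was present in 19 of the 37 member promoters (51.4%), from 16 genes, against 16.3% of all 32851 promoters of the same length. The MEF2 site was present in 4 of 37 (10.8%), in Myh1, Myh4, Myh8 and Ttn, against 3.19% of all. The CArG box was present in 3 of 37 (8.11%), in Acta1, Myh4 and Myl3, against 1.63% of all. TATAAA was present in 9 of 37 (24.3%) against 13.6% of all. These are matches of letters in a window, and no binding was measured.

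Depth was low and set what could be seen. Library totals ran from 12304814 to 13118122 normalized counts, but low values clustered at multiples of 109.3 to 139.6, which is taken here as the value of 1 read. By that step the libraries held an estimated 90145 to 116752 counted reads. A value of 0 allows up to 3 reads, or 328 to 419 normalized counts depending on the library, and this limit is called the floor. Between 66.6% and 71% of all genes were at 0 per library. Intervals and floors cover counting error only. Tooth markers varied and do not settle the tissue content. Krt14, a keratin of dental and other basal epithelium and the highest of its list, stood between 6362 and 36780 in every library of both tables. Other genes of that list did not stay level. Shh stood at 2146 and 1340 in Ascl5WT/WT, at 0 in both Ascl5Mut/Mut libraries and at 1136 and 1533 in Ascl5Mut/WT. Sostdc1 stood at 1413 and 1684, at 0 in both and at 251 and 541. Krt5 stood at 2304 and 1759 in Ascl5WT/WT, and at 824 and 987 in Ascl5Mut/Mut. Dlx1, a dental mesenchyme gene and the highest of its list, stood at 47224 and 53336 in Ascl5WT/WT and at 2348 and 556 in Ascl5Mut/Mut. In the other table it stood at 48116 and 55586 in Ascl5WT/WT and at 4658 and 2064 in Ascl5Mut/WT. Of the same list, Msx1 was above 0 only in Ascl5WT/WT replicate 1 and Pax9 only in Ascl5Mut/Mut replicate 1. Msx2 stood at 1834 and 1097 in Ascl5WT/WT and at 0 and 541 in Ascl5Mut/Mut. The enamel genes Amelx and Mmp20 reached at most 127 and 253.

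Muscle transcripts were present in all 6 libraries and differed widely between libraries of the same genotype. The 40 genes summed to 11117 and 47285 normalized counts in Ascl5WT/WT replicates 1 and 2, and to 278433 and 15610 in Ascl5Mut/Mut replicates 1 and 2. In the separately normalized table that holds Ascl5Mut/WT, the same wild-type libraries summed to 11314 and 49146, and Ascl5Mut/WT replicates 1 and 2 to 84684 and 24877. As a share of the library total, the genes took 0.0873% in Ascl5WT/WT replicate 1 (95% exact Clopper-Pearson interval 0.0714 to 0.106) and 0.376% in replicate 2 (0.34 to 0.415, 394 reads). They took 2.16% in Ascl5Mut/Mut replicate 1 (2.07 to 2.25, 1995 reads) and 0.127% in replicate 2 (0.104 to 0.152, 114 reads). In Ascl5Mut/WT they took 0.646% (0.598 to 0.696, 671 reads) and 0.19% (0.164 to 0.22, 182 reads). Within each genotype these intervals do not touch, so the 2 libraries of a genotype differed by more than counting error. Ascl5Mut/Mut replicate 2 lay between the 2 wild-type libraries. In bulk tissue, more muscle cells and more muscle RNA per cell cannot be told apart.

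**Figure D1:**
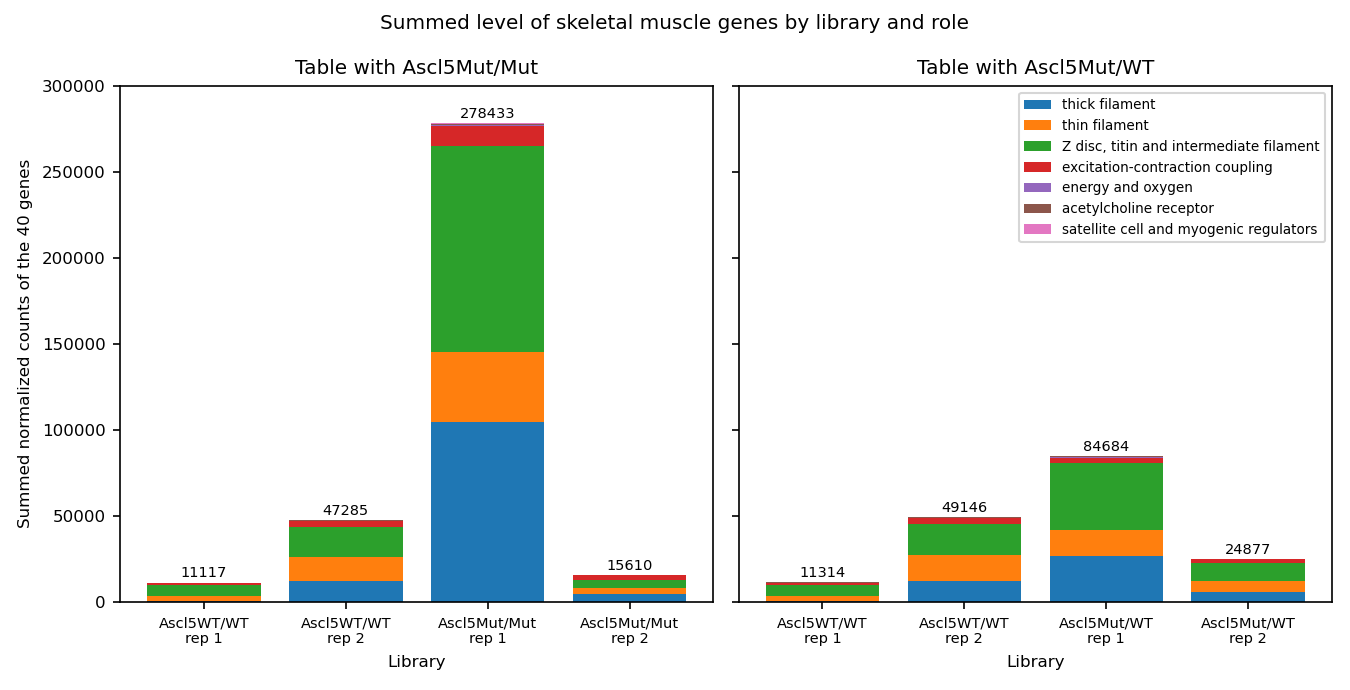
Stacked bars give the summed normalized counts of the 40 muscle genes in each library, coloured by role, in the table with Ascl5Mut/Mut (left) and the table with Ascl5Mut/WT (right), with the sum printed above each bar. Ascl5Mut/Mut replicate 1 reaches 278433, while Ascl5Mut/Mut replicate 2 at 15610 is below Ascl5WT/WT replicate 2 at 47285.

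The number of muscle genes detected followed the same order as the sums. In the Ascl5Mut/Mut table, 10 and 21 of the 40 were above 0 in the wild-type libraries, 30 in Ascl5Mut/Mut replicate 1 and 11 in replicate 2. In Ascl5Mut/WT, 23 and 18 were above 0. Over both tables, 20 members reached 10 or more estimated reads in at least 1 library. A further 11 were above 0 but under 10 reads everywhere: Actn3, Myl3, Myl4, Tnni2, Ckm, Mb, Myog, Cacna1s, Mybpc2, Myoz1 and Chrna1. The remaining 9 were listed at 0 in every library: Myh4, Myl2, Tnni1, Tnnc1, Myod1, Myf6, Pax7, Tcap and Chrng.

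**Figure D2:**
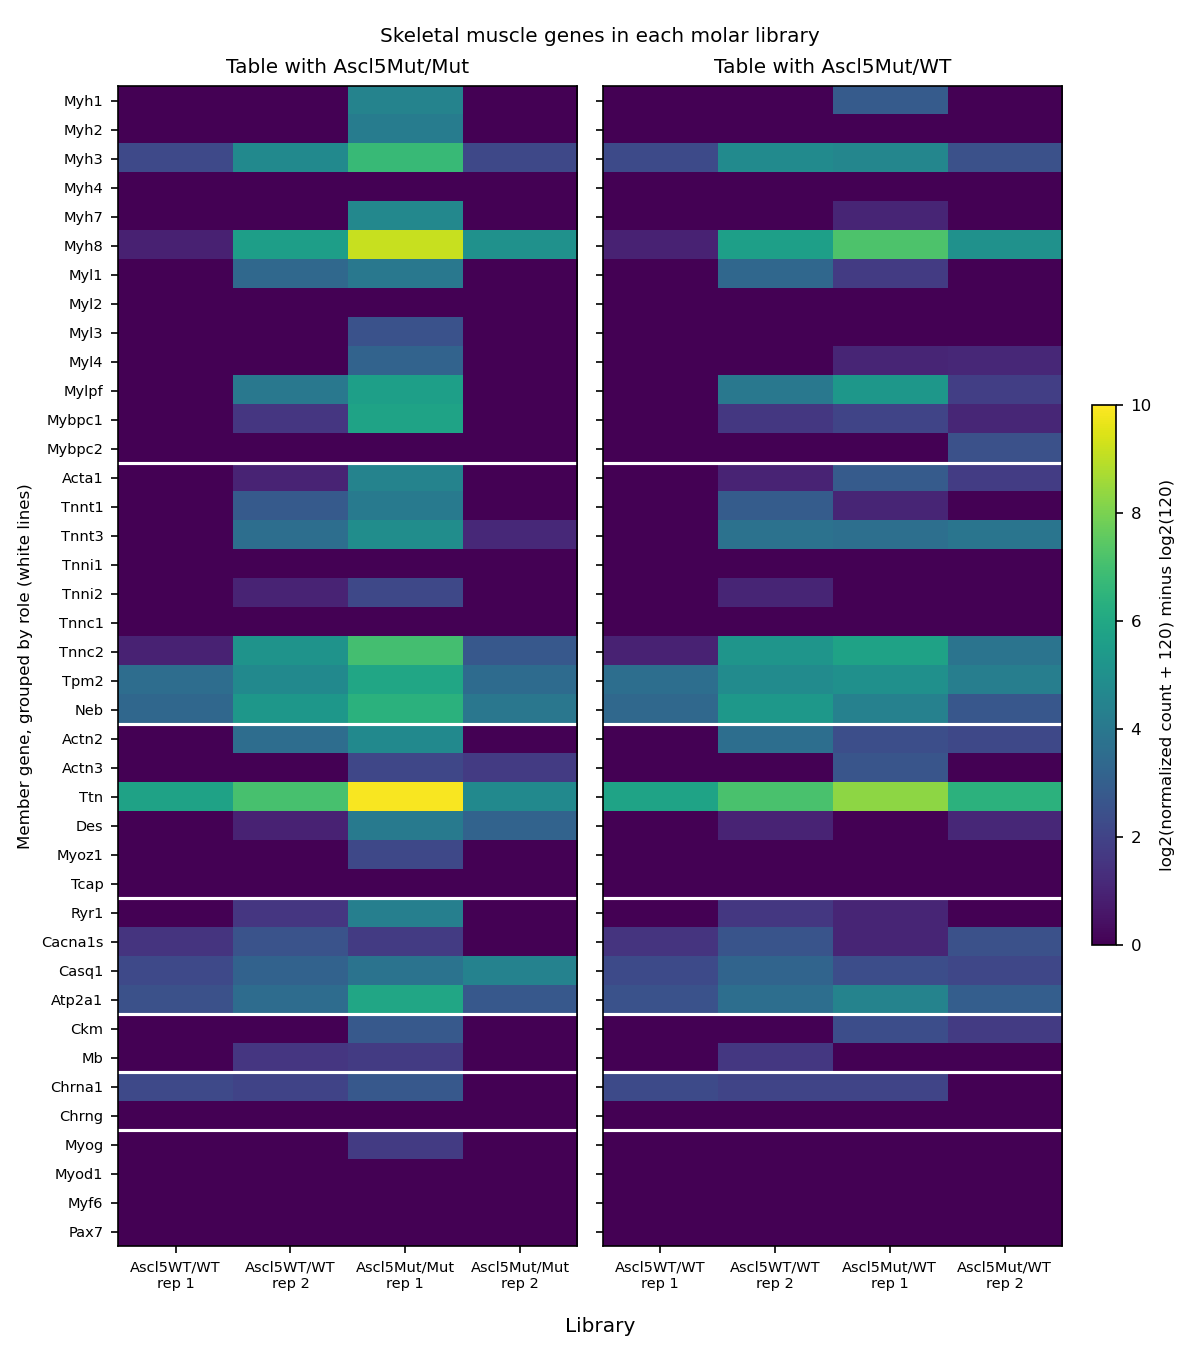
Colour gives log2(normalized count + 120) minus log2(120) for each of the 40 genes (rows, grouped by role) in each library (columns) of the 2 tables, where 0 means that the gene is listed at 0. Ascl5Mut/Mut replicate 1 has 30 genes above 0, and Myh8 and Ttn are its brightest rows.

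Gene values below are normalized counts in the order Ascl5WT/WT replicate 1, Ascl5WT/WT replicate 2, mutant replicate 1, mutant replicate 2, within 1 table. Myosin heavy chains carry the stage. Myh8, the neonatal chain (chromosome 11, 67277124 to 67308634, plus strand, GRCm38), stood at 109, 5694, 68080 and 3848 in the Ascl5Mut/Mut table. With Ascl5Mut/WT, its values were 111, 5930, 17714 and 3855. Myh8 was high in replicate 1 of each mutant genotype and lowest in Ascl5WT/WT replicate 1, where it was worth 1 read, and in each comparison the second mutant library lay between the 2 wild-type ones. Myh3, the embryonic chain (chromosome 11, 67078300 to 67102291, plus strand), read 434, 3088, 12744 and 414. Beside Ascl5Mut/WT it read 442, 3215, 2788 and 552. Its groups overlapped in both tables, and wild-type replicate 2 was the highest library of the Ascl5Mut/WT table.

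The slow and adult fast chains were seen in few libraries. Myh7, the slow chain, was listed at 0 in both wild-type libraries and in Ascl5Mut/Mut replicate 2, and at 2942 in Ascl5Mut/Mut replicate 1. In Ascl5Mut/WT replicate 1 it stood at 127, which is 1 read. Myh1, the fast 2X chain, was at 2523 in Ascl5Mut/Mut replicate 1, at 760 in Ascl5Mut/WT replicate 1 and at 0 elsewhere. Myh2, the fast 2A chain, was above 0 only in Ascl5Mut/Mut replicate 1, at 2102. Myh4, the fast 2B chain, was at 0 throughout, which at the floor of 419 in Ascl5Mut/Mut replicate 1 still allows 3 reads.

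Per kb of the longest coding transcript, neonatal and embryonic myosin led in every library. Myh8 made up 76.8% and Myh3 14.7% of the heavy chain level per kb in Ascl5Mut/Mut replicate 1, with Myh7 at 3.28%, Myh1 at 2.88% and Myh2 at 2.4%. In Ascl5Mut/WT replicate 1, Myh8 was 82.6%, Myh3 13.3%, Myh1 3.58% and Myh7 0.584%. Counted as reads, Myh3 and Myh8 together made up 91.5% of 633 heavy chain reads in Ascl5Mut/Mut replicate 1 (exact interval 89 to 93.5) and 95.9% of 169 in Ascl5Mut/WT replicate 1 (91.7 to 98.3). They made up all heavy chain reads in the other 4 libraries, on 5, 73, 31 and 32 reads. With 31 reads the exact interval of that share reaches down to 88.8%, which does not exclude the share of slow and adult fast chains seen in Ascl5Mut/Mut replicate 1. On 5 and 32 reads it reaches down to 47.8% and 89.1%. On the 73 reads of Ascl5WT/WT replicate 2 it reaches down only to 95.1%, above the whole interval of Ascl5Mut/Mut replicate 1.

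The balance of embryonic to neonatal myosin also differed between libraries. Myh3 gave 35.6% of the Myh3 and Myh8 reads in Ascl5WT/WT replicate 2 (exact interval 24.7 to 47.7) and 80% of 5 reads in replicate 1 (28.4 to 99.5). It gave 15.7% in Ascl5Mut/Mut replicate 1 (12.8 to 18.9) and 9.68% in replicate 2 (2.04 to 25.8), and 13.6% (8.71 to 19.8) and 12.5% (3.51 to 29) in Ascl5Mut/WT. Both wild-type shares were above all 4 mutant shares. This share was chosen after its values were seen, 1 of the wild-type values rests on 5 reads, and with 2 libraries against 2 the smallest two-sided p of an exact permutation test is 0.33, so the difference was not tested.

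**Figure D3:**
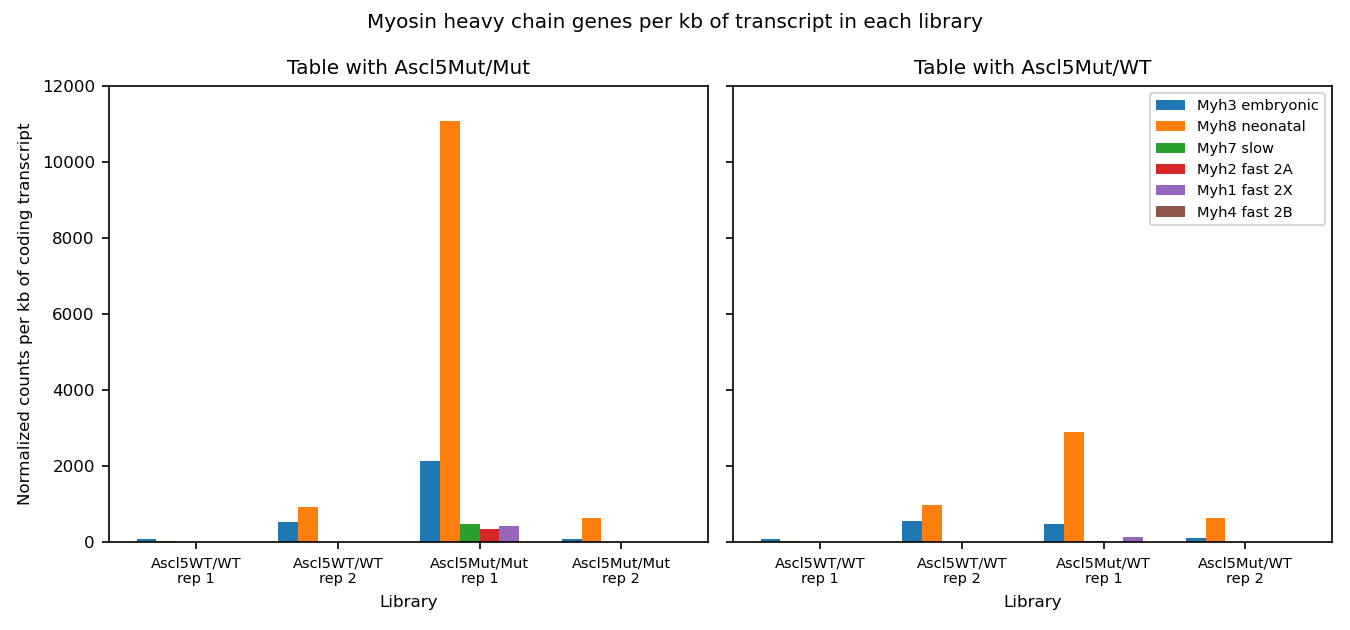
Bars give normalized counts per kb of the longest coding transcript for the 6 myosin heavy chain genes in each library, for the table with Ascl5Mut/Mut (left) and with Ascl5Mut/WT (right). Myh8 at 11072 is the tallest bar in Ascl5Mut/Mut replicate 1, followed by Myh3 at 2113, and Myh4 is at 0 in every library.

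Light chains and myosin-binding proteins completed the thick filament. Mylpf, the fast regulatory light chain (chromosome 7, 127208890 to 127214298, plus strand), stood at 0, 1827, 5939 and 0, and with Ascl5Mut/WT at 0, 1781, 4553 and 312. Myl1, the fast essential light chain, stood at 0, 1122, 1799 and 0, and with Ascl5Mut/WT at 0, 1107, 285 and 0. Both were present in wild-type replicate 2 and listed at 0 in wild-type replicate 1 and Ascl5Mut/Mut replicate 2. Myl3, the slow essential light chain, was above 0 in 1 library only, at 560 in Ascl5Mut/Mut replicate 1. Myl4, an embryonic and atrial light chain, was at 981 there and at 125 and 139 in Ascl5Mut/WT. Mybpc1, slow myosin-binding protein C (chromosome 10, 88518279 to 88605152, minus strand), stood at 0, 238, 6641 and 0, and with Ascl5Mut/WT at 0, 251, 383 and 135. Of the 6 libraries, Ascl5Mut/Mut replicate 1 alone was high. Mybpc2, its fast counterpart, was at 547 in Ascl5Mut/WT replicate 2 and at 0 elsewhere.

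On the thin filament, Tpm2 and Neb were above the floor in all 4 libraries of each table, and Tnnc2 in 3. Tnnc2, the fast calcium-binding troponin (chromosome 2, 164777161 to 164779967, minus strand), stood at 111, 4074, 15354 and 685, and with Ascl5Mut/WT at 114, 4278, 6324 and 1602. Per kb it was the highest of the 40 genes in both replicate 1 mutants, at 21934 and 9034. It was also the highest per kb in Ascl5WT/WT replicate 2, at 5820, and in Ascl5Mut/WT replicate 2, at 2289. Tnnt3, the fast tropomyosin-binding troponin, stood at 0, 1367, 3438 and 146. Beside Ascl5Mut/WT it stood at 0, 1501, 1382 and 1648, so that only wild-type replicate 1 lacked it in that table. Tnni2, the fast inhibitory troponin, reached 418 at most, about the floor. Of the slow troponins, Tnnt1 stood at 0, 725, 1949 and 0 and was at 123 and 0 in Ascl5Mut/WT, while Tnni1 and Tnnc1 were at 0 throughout.

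Acta1, skeletal alpha-actin, stood at 0, 118, 2556 and 0, and at 758 and 286 in Ascl5Mut/WT. Its level per kb in Ascl5Mut/Mut replicate 1 was 1768, below the 21934 of Tnnc2 and the 11072 of Myh8. Tpm2, a tropomyosin that is also made outside skeletal muscle, stood at 1316, 3069, 7150 and 1235, and with Ascl5Mut/WT at 1358, 3241, 3769 and 2227. Neb, nebulin, the thin filament ruler, stood at 1094, 4575, 9797 and 1732, and with Ascl5Mut/WT at 1114, 4768, 2413 and 673. Neb was thus below wild-type replicate 2 in both Ascl5Mut/WT libraries, unlike Tpm2, whose first mutant library was the highest.

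Ttn, titin, the spring that runs from Z disc to M band (chromosome 2, 76703980 to 76982547, minus strand), had the largest normalized count of the 40 genes in each library except Ascl5Mut/Mut replicate 2, where Myh8 had it. It stood at 6405, 16184, 114270 and 3144, and with Ascl5Mut/WT at 6497, 16792, 37894 and 10258. Its transcript is also the longest of the 40. Per kb it stood at 60, 151, 1070 and 29.4, below Myh8 in every library except wild-type replicate 1. Without Ttn the sums were 4712, 31101, 164163 and 12466, in the same order as with it. Actn2, an alpha-actinin of the Z disc, stood at 0, 1307, 3114 and 0 and at 507 and 419 in Ascl5Mut/WT. Actn3, the fast-fibre alpha-actinin, was at 411 and 278 in Ascl5Mut/Mut, at 633 and 0 in Ascl5Mut/WT and at 0 in wild type. Des, desmin, the muscle intermediate filament, stood at 0, 116, 1965 and 980, and at 0 and 140 in Ascl5Mut/WT. Desmin is also made by smooth and cardiac muscle. Myoz1, a fast-fibre Z disc protein, was at 420 in Ascl5Mut/Mut replicate 1 only.

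Genes of calcium handling and excitation did not all follow the filament genes. Atp2a1, the fast sarcoplasmic reticulum calcium pump, stood at 551, 1279, 7230 and 699, and at 2516 and 840 in Ascl5Mut/WT. Ryr1, the calcium release channel, stood at 0, 237, 2265 and 0, and at 128 and 0 in Ascl5Mut/WT. Casq1, the calcium-storing calsequestrin of fast fibres, stood at 440, 950, 1541 and 2450, and with Ascl5Mut/WT at 448, 991, 505 and 408. Casq1 was the only tested member with its highest value in Ascl5Mut/Mut replicate 2, the library in which Myh7, Acta1, Mylpf and Ryr1 were at 0. Cacna1s, the voltage sensor of the same calcium release unit, stood at 220, 592, 282 and 0 and at 127 and 554 in Ascl5Mut/WT. It begins 1379 bases after Ascl5 on the same strand of chromosome 1, and none of its values exceeded 5 reads.

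Metabolic, synaptic and regulatory members were near or under the floor. Ckm, muscle creatine kinase, was at 0 in wild type, at 701 and 0 in Ascl5Mut/Mut and at 493 and 281 in Ascl5Mut/WT. Mb, myoglobin, was at 241 in wild-type replicate 2 and at 279 in Ascl5Mut/Mut replicate 1. Chrna1, the acetylcholine receptor alpha subunit, stood at 437, 360, 698 and 0, or at most 5 reads in any library. Chrng, the fetal gamma subunit, was at 0. Myog, the differentiation factor myogenin, was at 281 in Ascl5Mut/Mut replicate 1, or 2 reads, and Myod1, Myf6 and Pax7 were at 0, so muscle stem cells and myoblasts were not detectable at this depth.

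Fast members outweighed slow members in each library where both could be summed. The 13 fast members (Myh1, Myh2, Myh4, Myl1, Mylpf, Mybpc2, Tnnt3, Tnni2, Tnnc2, Actn3, Myoz1, Atp2a1 and Casq1) summed per kb to 556, 11549, 39224 and 2738. The 7 slow members (Myh7, Myl2, Myl3, Mybpc1, Tnnt1, Tnni1 and Tnnc1) summed per kb to 0, 745, 4604 and 0. Slow genes thus made up 6.06% of the fast and slow level in wild-type replicate 2 and 10.5% in Ascl5Mut/Mut replicate 1. In Ascl5Mut/WT they made up 1.3% and 0.705%, on sums of 235 and 34.4 against 17864 and 4838 for fast genes. The slow sum held 3 reads of Mybpc1 and 1 each of Myh7 and Tnnt1 in Ascl5Mut/WT replicate 1. It held 1 read of Mybpc1 in Ascl5Mut/WT replicate 2, and 6 of Tnnt1 and 2 of Mybpc1 in wild-type replicate 2. In Ascl5Mut/Mut replicate 1, Mybpc1 gave 1693 of the 4604. No interval was computed, so differences between these slow shares were not tested. In the libraries with no slow member above 0, wild-type replicate 1 and Ascl5Mut/Mut replicate 2, 3 of 13 and 5 of 13 fast genes were above 0. There Casq1 was the highest fast member, at 238 and 1326 per kb, above Tnnc2 at 159 and 979. Elsewhere Tnnc2 carried much of the fast level. Without it, the other fast troponins stood at 1424 per kb against 685 for the slow ones in wild-type replicate 2, and at 3731 against 1840 in Ascl5Mut/Mut replicate 1, a smaller gap than the 25665 against 1840 with it.

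The spread within a genotype was set against that of other genes by counting genes that differed at least 4-fold between its 2 libraries, on value + 120, among genes above the floor in 1 of the 2. In Ascl5Mut/Mut, 23 of 25 members were higher in replicate 1 past 4-fold, against 19.6% of all genes. None were higher in replicate 2, against 18.1%. All 25 were above the floor in replicate 1, and only 9 in replicate 2. A gene above the floor in 1 Ascl5Mut/Mut library and at 0 in the other passes 4-fold by construction. The count of 23 is thus partly set by the filter, and it was not tested. In Ascl5WT/WT, 8 of 15 members (Actn2, Myh3, Myh8, Myl1, Mylpf, Tnnt1, Tnnt3 and Tnnc2) were higher in replicate 2, against 15.3%, and none in replicate 1, against 14.8%. In Ascl5Mut/WT, 5 of 18 (Actn3, Myh1, Myh3, Myh8 and Mylpf) were higher in replicate 1, against 14.6%. Only Mybpc2 was higher in replicate 2, against 12.8%. The filter bears on these counts too. In Ascl5WT/WT, 7 members were above the floor in replicate 1 and 14 in replicate 2, and in Ascl5Mut/WT 16 and 11. Replicate numbers only name the libraries and do not pair them.

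Against wild type, no muscle gene passed the test in Ascl5Mut/Mut molars. Of 2336 genes tested with limma on log2(normalized count + 120), 20 (0.856%) passed a Benjamini-Hochberg adjusted p of 0.05, and 261 had an unadjusted p under 0.05. Among the 40 members, 12 reached the minimum mean of 1000 and were tested, 0 passed and 1, Myh8, had an unadjusted p under 0.05. The log2 difference of Myh8 was 3.83, with an SE of 1.47 and a limma adjusted p of 0.366. Mybpc1 differed by 2.12 (SE 3.55, limma adjusted p = 0.856), Tnnc2 by 1.84 (SE 1.48, adjusted p = 0.644) and Casq1 by 1.42 (SE 0.85, adjusted p = 0.557). The other 8 tested members were Atp2a1 (1.34), Tnnt3 (1.2), Myh3 (0.97), Ttn (0.91), Neb (0.84), Mylpf (0.82), Actn2 (0.59) and Tpm2 (0.55). The median over the 12 was 1.09, against -0.02 over all genes tested. A member reached the minimum mean mostly through 1 high mutant library, so this median describes the members that passed it and not the set. Without Ascl5Mut/Mut replicate 1, 10 of the 12 differences were below 0 and their median was -0.67.

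Summed over the 40 genes, Ascl5Mut/Mut stood at 147022 ± 185844 (SD, n = 2) and Ascl5WT/WT at 29201 ± 25575 (SD, n = 2), a ratio of 5.03. Without Ascl5Mut/Mut replicate 1 the ratio was 0.535. Without Ascl5WT/WT replicate 2 it was 13.2, and Myh8 alone then passed (6.17 on the log2 scale, limma adjusted p = 0.0207). Among the 26 members above the floor in at least 1 library of the table, Ascl5Mut/Mut replicate 1 was the highest library for 24, against 23.7% of all such genes. Of the 26, 25 were above the floor in that library, 7 and 14 in the wild-type libraries and 9 in Ascl5Mut/Mut replicate 2. Members that entered only through Ascl5Mut/Mut replicate 1 had to be highest there, so the count of 24 describes the filter as well. Both mutant libraries were above both wild-type libraries for 2 of the 26, Des and Casq1, against 16.7% of all genes. No member was lower in both, against 17.5%.

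In Ascl5Mut/WT molars no member passed either. Of 2370 genes tested, 13 (0.549%) passed the limma test after Benjamini-Hochberg adjustment, and 207 had an unadjusted p under 0.05. Of 9 members tested, 0 passed and 1, Myh8, had an unadjusted p under 0.05, with a difference of 2.83 (SE 0.98, limma adjusted p = 0.305). Tnnt3 differed by 1.89 (SE 1.46, limma adjusted p = 0.708), Tnnc2 by 1.71 (SE 0.98, adjusted p = 0.594) and Mylpf by 1.57 (SE 1.62, adjusted p = 0.772). Ttn differed by 0.91, Atp2a1 by 0.68, Tpm2 by 0.44, Myh3 by 0.03 and Neb by -0.79. Their median was 0.91, against 0.04 over all genes tested, and -0.03 without Ascl5Mut/WT replicate 1. As in Ascl5Mut/Mut, the minimum mean favours members with a high library, so this median describes only the 9. Ascl5Mut/WT stood at a summed 54780 ± 42290 (SD, n = 2) against 30230 ± 26751 for wild type (SD, n = 2), a ratio of 1.81. That ratio was 0.823 without Ascl5Mut/WT replicate 1 and 4.84 without Ascl5WT/WT replicate 2. Without the latter library Myh8 passed here too (5.19, limma adjusted p = 0.00198).

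Library by library, Ascl5Mut/WT replicate 1 was the highest of its table for 11 of 21 members above the floor, against 26.2% of all genes. Of the 21, 16 were above the floor in that library, and those that entered only through it add to the 11. Both Ascl5Mut/WT libraries were above both wild-type ones for 2 of the 21, Acta1 and Ckm, against 17.4%, and below for none, against 15.4%. The second mutant library held 2 reads of Acta1 and of Ckm. The 2 mutant genotypes share their wild-type libraries, so their values are set side by side without a comparison.

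**Figure D4:**
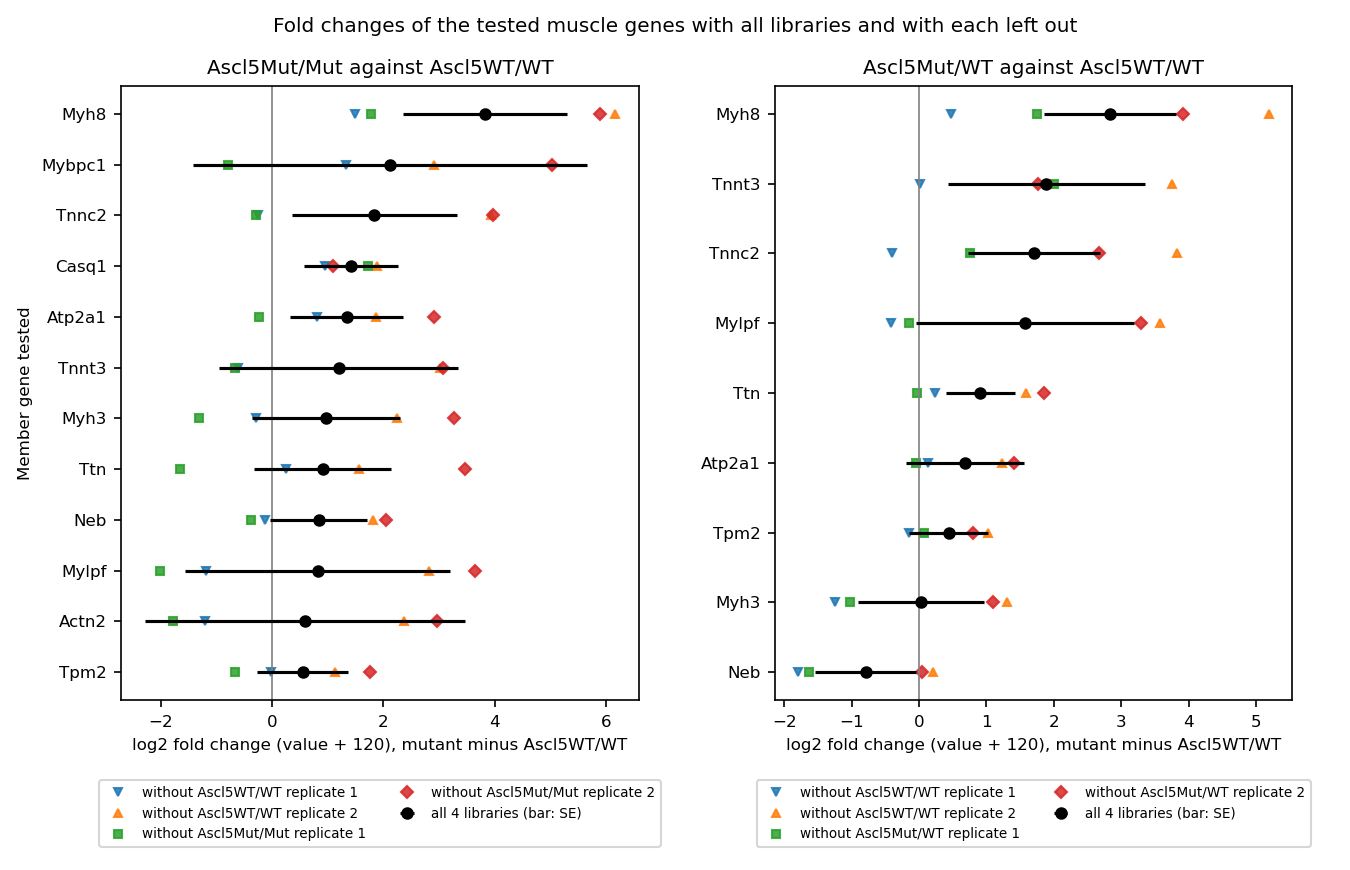
Black points give the log2 fold change (value + 120, mutant minus Ascl5WT/WT) of each tested member with its SE, and coloured symbols give it with 1 library left out, for Ascl5Mut/Mut (left, 12 genes) and Ascl5Mut/WT (right, 9 genes). Without the first mutant library (green squares) most points on the left lie below 0, while Myh8 stays above 0 in all settings of both panels.

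Other muscle genes, from lists that the 40 do not contain, gave fewer values. Of 29 further sarcomere genes, 2 were tested in Ascl5Mut/Mut and 1 in Ascl5Mut/WT, and 0 passed. Their highest gene, Tpm1, stood at 1075, 834, 3295 and 2052. Of 23 calcium-handling and membrane genes, 2 were tested in each comparison and 0 passed. Of 14 myoblast and fusion genes, 2 were tested in each and 0 passed, and Myf5, Mymk and Mymx were at 0 in all libraries. Of 10 neuromuscular junction genes, 1 was tested in each and 0 passed. Of 13 muscle metabolism genes only Perm1, a regulator of muscle oxidative genes, was tested. It was higher in both comparisons, by 2.62 (SE 0.37, limma adjusted p = 0.0151) in Ascl5Mut/Mut and 2.21 (SE 0.40, limma adjusted p = 0.0068) in Ascl5Mut/WT. Perm1 stood at 4477, 3811, 23321 and 28968. It was thus as high in Ascl5Mut/Mut replicate 2, where the 40 genes summed to 15610, as in replicate 1, where they summed to 278433.

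Markers of other cell types were read in the same libraries. Of 10 heart genes, Myh6, Myl7, Nppa and Nkx2-5 were at 0 in every library, while Tnnt2 stood at 424, 0, 575 and 0, and in the Ascl5Mut/WT table it was above the floor only in wild-type replicate 1, at 450. Ryr2 was at 218 in wild-type replicate 1 and at 136 in Ascl5Mut/WT replicate 2, Hcn4 at 125 and 418 in Ascl5Mut/WT, and Tnni3 at 127 in Ascl5Mut/WT replicate 1. Tnnt2 was thus above the floor in Ascl5Mut/Mut replicate 1, the library with Myh7 and Mybpc1, and also in wild-type replicate 1, which had neither. Of 8 smooth muscle genes, 7 were above 0 in the Ascl5Mut/Mut table and the list summed to 2400, 843, 3725 and 1916. Of 10 bone and osteoclast genes, the sum was 2490, 7230, 43349 and 32732, and with Ascl5Mut/WT 2591, 7550, 27898 and 11782. Of 10 genes of keratinized oral epithelium, the sum was 2792, 424, 20780 and 128903, highest in the mutant library with little muscle RNA. Of 6 tendon genes, the sum was 756, 604, 1680 and 2199, and of 7 endothelial genes 486, 839, 1997 and 1538. Their part in the muscle values was not tested.

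Some members may share reads with other genes, which was not measured. Exons of 18 members overlap a gene on the opposite strand, and the strand setting of the counting is not given in the sources used here, so reads of such pairs cannot be told apart. Of the 22 overlapping genes, 9 were listed with values. For Tnnc2 the overlap with Ube2c is 592 bases, and Ube2c stood at 221, 118, 0 and 0. Myh1 overlaps Myhas by 515 bases, and Myhas stood at 0, 0, 7988 and 0 and at 4432 and 0 in Ascl5Mut/WT. Ckm overlaps A930016O22Rik by 451 bases, which stood at 330, 0, 6256 and 0. Stretches of 75 bases that also occur in another gene's transcript made up 16.6% of Myh1, 16.3% of Myh2, 12.9% of Myh8, 9.68% of Myh4 and 1.86% of Myh3, mostly shared among the myosins. They made up 15.3% of Myh7, shared with Myh6, which was at 0, and 16.6% of Myl1, shared with Mylf-ps. The split of reads among Myh1, Myh2, Myh4 and Myh8 is uncertain to that extent.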

How the data were processed

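RNA was measured in 6 libraries of molars at postnatal day 1, 2 per Ascl5 genotype, and the labels' protocols name a SMARTer Stranded kit. Per the submitters' processing notes, the mm10 genome and DESeq2 were used. For the aligner, annotation, strand setting and versions, the sources used here give nothing. Normalized counts were deposited by the authors and are a linear signal, not raw counts. There are 2 such tables of 24972 genes, each with the 2 Ascl5WT/WT libraries and the 2 of 1 mutant genotype. The tables were scaled separately: wild-type values differed by a median ratio of 1.018 and 1.041, so each comparison was made within its table. Low values came within 0.1 of whole reads for 84% to 94% of them in each library, too few to recover counts, so no count model was run. Estimated reads are values divided by the step and rounded. The exact intervals rest on them and treat reads as independent, so these intervals are approximate.

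limma 3.58.1 (R 4.3.3) with an intensity trend was fitted to log2(normalized count + 120) for genes whose mean over the 4 libraries reached 1000, and its tests are two-sided. Benjamini-Hochberg adjusted p under 0.05 was a call. Fold changes are mutant minus wild type on that scale, which understates those of low genes. The p-values measure the spread between these samples only, which may be technical, since the labels give no number of animals per library. The fit was tested on simulated data. For Ascl5Mut/Mut it recovered 10.6% of 4-fold and 61.8% of 16-fold changes, and for Ascl5Mut/WT 15.5% and 71.5%. A gene that did not pass may therefore still differ. Levels per kb use the longest coding transcript of each member in GENCODE M21 (GRCm38), chosen over the union of exons, which retained introns lengthen. This choice was made after seeing the data. Alternatives were another pseudocount, minimum mean and scaling, the replicate number as a block, and leaving out each library. Members with 10 or more estimated reads in a library are given with all values. The 40 members, the gene lists, the tests and the rule for naming genes were chosen with earlier results of these data known. All columns of both tables were used. Values of some marker genes are not reported here.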

Additional observations from a re-analysis of the deposited data

How the results depend on the processing

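With 1 library left out at a time, the number of members called ranged from 0 to 1 in each comparison. For Ascl5Mut/Mut the ratio of summed levels lay between 0.535 and 13.2, and for Ascl5Mut/WT between 0.823 and 4.84. Genes called among all tested ranged from 0 to 33 and from 0 to 34, with 0 without either library of a mutant genotype. In Ascl5Mut/Mut, log2 differences without 1 library ranged from -1.79 to 2.97 for Actn2, -1.32 to 3.27 for Myh3, -2.01 to 3.65 for Mylpf, -0.67 to 3.07 for Tnnt3, -0.29 to 3.97 for Tnnc2, -0.66 to 1.76 for Tpm2, -1.66 to 3.47 for Ttn, -0.37 to 2.05 for Neb, -0.24 to 2.92 for Atp2a1 and -0.79 to 5.03 for Mybpc1. Those of Myh8 (1.5 to 6.17) and Casq1 (0.95 to 1.88) kept their sign. In Ascl5Mut/WT they ranged from -1.25 to 1.31 for Myh3, -0.42 to 3.57 for Mylpf, -0.4 to 3.83 for Tnnc2, -0.15 to 1.03 for Tpm2, -0.03 to 1.85 for Ttn, -1.79 to 0.2 for Neb and -0.05 to 1.41 for Atp2a1. Those of Myh8 (0.48 to 5.19) and Tnnt3 (0.01 to 3.76) kept their sign. Where 1 library of a group was left, it was assumed to vary like the other group.

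A pseudocount of 1 gave 4 and 8 called genes for Ascl5Mut/Mut and Ascl5Mut/WT, and with a minimum mean of 10 it gave 0 and 0. A minimum mean of 120 gave 1 for Ascl5Mut/Mut, as did no minimum, where more genes were tested. No member was called under these settings or with totals set equal, and no tested member changed sign under them. A pseudocount of 1 moved Tnnt3 to 4.26 in Ascl5Mut/Mut and 5.28 in Ascl5Mut/WT, and Mylpf to 4.82 in Ascl5Mut/WT, where wild-type replicate 1 is at 0 for both genes. With the replicate number as a block, 36 and 37 genes were called, and 1 member, Myh8, in Ascl5Mut/WT (2.83, limma adjusted p = 0.000103). Levels per kb of the union of exons in place of the transcript, an alternative chosen after seeing the data, gave Myh3 and Myh8 together 88.4% of the heavy chain level in Ascl5Mut/Mut replicate 1, gave Myh3 51.3% in wild-type replicate 2, above Myh8 there, and gave slow genes 8.48% in Ascl5Mut/Mut replicate 1. The numbers do not pair the libraries: deviations of same-numbered libraries correlated at -0.01 and 0.02. Depth limits all of this, since 12 of the 40 members in Ascl5Mut/Mut and 9 in Ascl5Mut/WT were high enough to test.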
